A study of Mus musculus with 12 samples.

Results

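Pausing by inhibition of mTOR, the kinase that couples growth to nutrients, was compared between embryonic stem cells (ESC, from the mouse line E14) and trophoblast stem cells (TSC), using small RNA sequencing. The quantity examined was the lineage difference in the pause response: the log2 change of a miRNA from control to paused ESC, minus the log2 change from control to paused TSC. All 12 deposited samples entered, which is the whole series: 3 control ESC and 3 paused ESC samples, and 3 control TSC and 3 paused TSC samples. Controls were labelled WT and paused cells were labelled as mTOR-inhibited. No genotype change, inhibitor name, dose, duration or TSC line was given in the labels. In each of the 4 groups the values of replicate 3 equalled those of replicate 2 at all 1978 miRNA rows, so the pair was counted once. This left 8 distinct libraries, 2 per group, and 206 of the 1978 miRNAs held enough counts to be tested. The labels did not say that replicates were separate cultures, so p-values measure only the spread between these libraries, which may be technical. That spread was pooled over all tested miRNAs.

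Libraries were shallow and unequal. The control ESC libraries held 19266 and 13607 counts on miRNAs and the paused ESC libraries 73574 and 61749. Control TSC libraries held 115492 and 18725 counts, and those of paused TSC held 23652 and 30487. Paused ESC libraries were thus deeper than control ESC libraries, and the deepest library of all was a control TSC. The part of depth in the results was not tested beyond thinning all libraries to 13607 counts. A floor of 3 counts corresponded to between 37.4 and 191.7 CPM (counts scaled to a library of standard size) in a library, by edgeR's trimmed mean of M values (TMM). In the text, replicate values follow the order replicate 1, then replicate 2. A miRNA with 3 or fewer counts pooled over a group is called sparsely counted, and its fold is given from the pooled counts. The cell labels were compared with marker miRNAs. The miR-302 cluster, expressed in pluripotent cells, took 0.2855% and 0.4997% of counts in control ESC and at most 0.005195% in any TSC library. In paused ESC it took 0.01223% and 0.006478%, so this marker set only control ESC far apart from TSC. The miR-322 cluster took 5.763% to 11.28% of counts in the TSC libraries and at most 0.1604% in ESC. The miR-290-295 cluster, the most abundant miRNA cluster of mouse ESC, was high in both lineages, at 62.14% to 65.29% in ESC and 48.6% to 59.14% in TSC. The cluster in an intron of Sfmbt2, a further trophoblast marker, set the lineages less far apart, at 2.356% and 2.8% in control ESC and 4.047% and 3.947% in control TSC. Markers of muscle, neural and liver cells had no member with enough counts to be tested. Of 20 listed fibroblast and smooth muscle markers 13 were counted and 1, miR-143-3p, was tested. Together they took at most 0.1223% of counts in any library. Blood markers, with 3 tested, are given below.

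MiRNAs are short RNAs that guide Argonaute proteins to target transcripts, mainly through the seed, bases 2 to 8 of the mature strand. Many are made from clusters, in which several hairpins are cut from 1 transcript, so cluster members often move together. ESC stand for the pluripotent epiblast and TSC for the trophoblast, the precursor of the placenta, and both lineages are present in a blastocyst that enters diapause, a reversible arrest that mTOR inhibition mimics. Some of the miRNA groups below are lineage specific in their use: the repeat-derived cluster in an intron of Sfmbt2 is an imprinted, trophoblast-rich cluster of rodents, and the Dlk1-Dio3 cluster is an imprinted set of maternally expressed miRNAs.

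Mature sequences, from RefSeq on GRCm38.p6, are shown for some of the seed families with several tested members, not always in full. They are also shown for miRNAs that stand for the opposite, shared and most unequal responses. They run 5′ to 3′ with the seed in capitals. The first 3 share 1 seed, with 2 called lower in ESC and miR-130b-3p not called; the next 3 share a seed but had differences on both sides of 0. Then follow the miR-200 seed, with 2 members called higher in ESC and miR-200c-3p not called, and the seed of 2 neighbouring 3p strands of the Dlk1-Dio3 cluster, both called higher. The last 3 are an opposite response, a shared response and the lowest called difference among well-counted miRNAs. Of the 206 tested miRNAs, 164 had a RefSeq entry.
miR-130a-3p: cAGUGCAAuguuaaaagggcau
miR-301a-3p: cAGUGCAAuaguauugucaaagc
miR-130b-3p: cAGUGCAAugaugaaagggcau
miR-32-5p: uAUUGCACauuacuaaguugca
miR-25-3p: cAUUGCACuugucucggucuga
miR-92a-3p: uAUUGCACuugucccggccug
miR-429-3p: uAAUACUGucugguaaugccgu
miR-200b-3p: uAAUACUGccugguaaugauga
miR-200c-3p: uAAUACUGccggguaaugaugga
miR-379-3p: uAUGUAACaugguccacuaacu
miR-411-3p: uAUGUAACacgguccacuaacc
miR-690: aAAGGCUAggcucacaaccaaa
miR-1983: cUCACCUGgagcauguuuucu
miR-3473b: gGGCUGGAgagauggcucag

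Of 206 tested miRNAs, 54 (26.2%) had a lineage difference with an adjusted p under 0.05 by edgeR's quasi-likelihood test with Benjamini-Hochberg adjustment, which is what "called" means below. The response was more positive in ESC for 30 of them (14.6% of those tested) and more negative in ESC for 24 (11.7%). The pause effect alone was called for 57 miRNAs in ESC (27.7%) and for 39 in TSC (18.9%). Among the 54, the pause effects had opposite signs in 33 and were both below 0 in 21, and none had both above 0. Over all 206 tested miRNAs the pause effects had the same sign in 104. Sorted by which lineage's own pause effect was called, 27 were called in ESC alone (ESC-led) and 18 in TSC alone (TSC-led). These names do not say which change was larger. The ESC-led miR-379-5p, for one, had log2 pause effects of 1.18 in ESC and -1.13 in TSC. Of the ESC-led miRNAs, 20 were lower and 7 higher in the ESC response, whereas of the TSC-led 16 were higher and 2 lower. A further 3 were called in opposite directions, 2 in the same direction to unequal extents, and 4 in neither lineage alone. In small RNA libraries from bulk cells, fewer cells that make a miRNA and less of it per cell cannot be told apart, and all values are relative to the other miRNAs of the library.

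The direction of these counts depended on scaling, and the median difference changed sign without 1 library. With total counts alone in place of TMM, 57 miRNAs were called, 17 higher and 40 lower, so the higher share moved from 55.6% to 29.8%, as the median of all differences shifted by -0.603. With TMM the median difference over the 206 miRNAs was 0.33, from median pause effects of -0.028 in ESC and -0.386 in TSC, and differences below are best read against that median. Without control TSC replicate 1 the median difference was -0.232. That library had a TMM factor of 0.68, while the factors of the other libraries ran from 0.887 to 1.15. All 54 kept their sign under total counts and 41 stayed called. Across 20 alternative settings 51 of the 54 kept their sign in all of those that tested them. Leaving out 1 library gave between 26 and 65 called miRNAs, with the lowest count without paused TSC replicate 2.

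**Figure D1:**
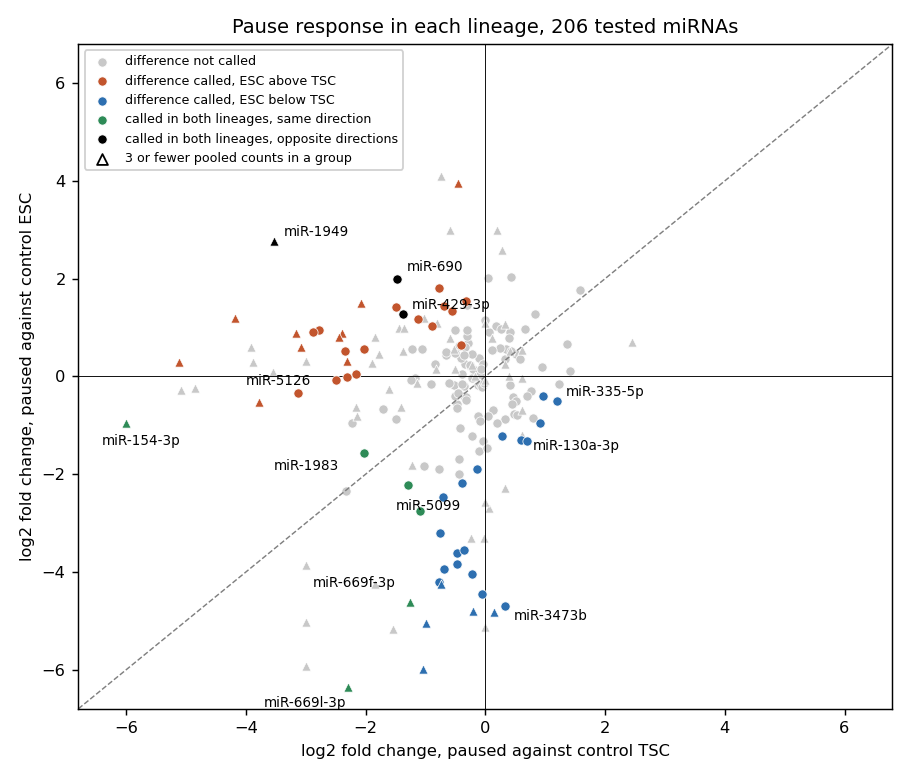
Log2 fold change of paused against control cells in TSC (x axis) and ESC (y axis) for the 206 tested miRNAs; the dashed diagonal marks equal responses and triangles mark miRNAs with 3 or fewer pooled counts in a group, whose fitted values are uncertain. Called differences with ESC below TSC (blue) lie mainly near 0 on the x axis and far down the y axis, and those with ESC above TSC (orange) lie mainly to the left of 0.

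Opposite responses, called upward in ESC and downward in TSC, were found for 3 miRNAs (1.46% of those tested): miR-1949, miR-690 and miR-429-3p. No miRNA was called in the reverse arrangement as reported, but this depended on scaling. miR-130a-3p was in that arrangement with total counts, median-of-ratios scaling and TMM without the miR-290-295 cluster, and miR-32-5p with total counts. Some runs that left out a library also placed miRNAs there. miR-1949 stood at 638 and 511 CPM without and 3916 and 4099 CPM with pausing in ESC, against 701 and 482 CPM without and 0 and 90.7 CPM with pausing in TSC. The paused ESC libraries were above all others, the paused TSC libraries were below all others, and the control libraries of the lineages overlapped. Pooled counts went from 22 to 579 in ESC, a 6.83-fold rise (95% counting interval 4.468 to 10.99), and from 63 to 3 in TSC, a 12.64-fold fall (4.133 to 62.95). Its difference was called (adjusted p = 5.27e-12) in all 19 alternative settings that tested it, although its opposite class was lost without paused TSC replicate 1, the library with 0 counts, and after thinning (adjusted p of the difference 0.0427), and its fitted log2 difference moved from 6.30 to 10.51 without paused TSC replicate 2.

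miR-690 lies in an intron of Fgf12 on the same strand (chr16:28599935-28600043, GRCm38) and belongs to a list of 9 tested entries whose origin as miRNAs is doubtful. It stood at 91.1 and 256 CPM without and 412 and 913 CPM with pausing in ESC, against 841 and 1505 CPM without and 372 and 393 CPM with pausing in TSC. Paused ESC lay above control ESC and paused TSC below control TSC, with no overlap within either lineage (log2 difference 3.47, SE 0.81, adjusted p = 4.87e-05). The call was lost in 1 of 20 alternatives, thinning every library to 13607 counts (adjusted p = 0.172).

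miR-429-3p, of the miR-200 family that represses the Zeb transcription factors, shares its seed AAUACUG with the neighbouring miR-200b-3p. It was counted at 319 and 319.5 CPM without and 898 and 649.7 CPM with pausing in ESC, against 955 and 602 CPM without and 496 and 181 CPM with pausing in TSC. Within each lineage the paused and control libraries did not overlap, and its log2 pause effect was 1.28 in ESC and -1.38 in TSC (log2 difference 2.66, SE 0.71, adjusted p = 0.00107). This call was lost without paused ESC replicate 1 (adjusted p = 0.0667), control TSC replicate 1 (0.0572) or paused TSC replicate 2 (0.0955), and with DESeq2 (0.0748). The count of opposite responses was 1 with DESeq2 and between 0 and 5 when 1 library was left out. miR-429-3p was opposite in no alternative other than all deposited files, where identical files count again. miR-690 stayed opposite there, under median-of-ratios scaling, under every replicate block given below, and without control TSC replicate 1. It was not opposite in any other alternative, among them total counts. The class of miR-429-3p and miR-690 is thus less firm than that of miR-1949.

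**Figure D2:**
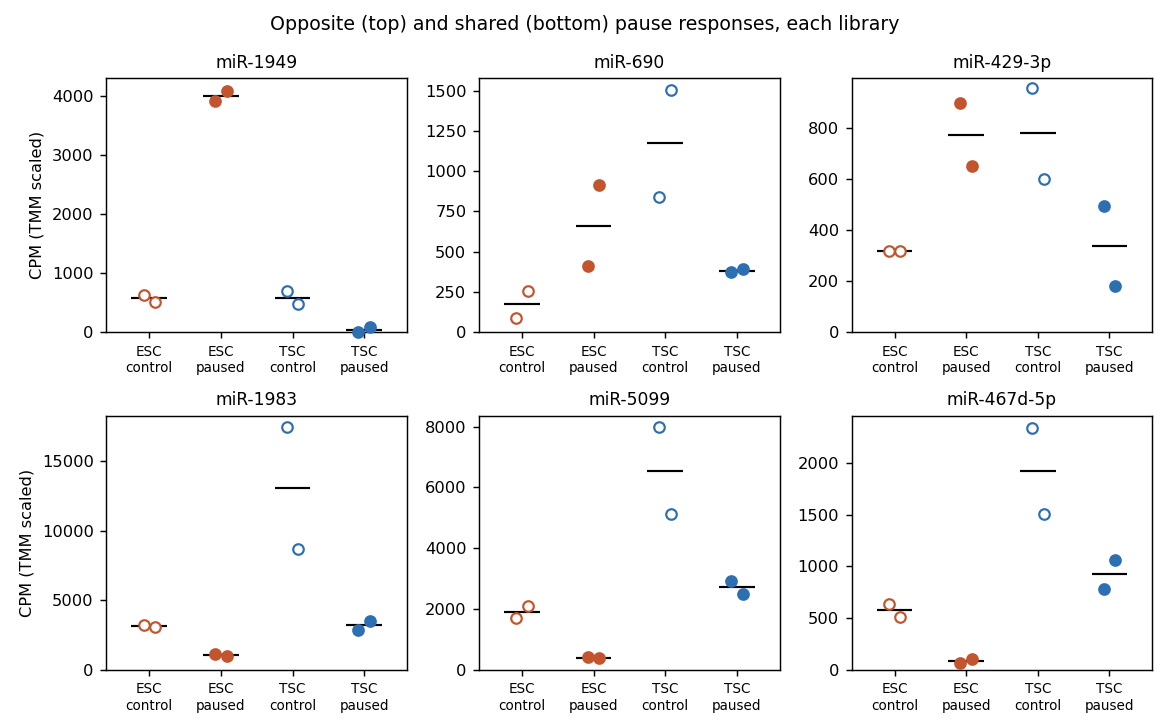
TMM-scaled CPM in each of the 8 libraries for the 3 opposite responses (top) and 3 of the shared responses (bottom); points are libraries, open for control and filled for paused, and bars are group means over 2 libraries. In the top row paused ESC sit above control ESC while paused TSC sit below control TSC; in the bottom row paused libraries sit below control libraries in both lineages.

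Shared responses, with both pause effects called in the same direction, numbered 6 (2.91%), and all 6 fell: miR-1983, miR-5099, miR-467d-5p, miR-669l-3p, miR-669e-5p and miR-154-3p. The first pair is on the list of doubtful entries, the next 3 belong to the Sfmbt2 cluster and the last to the Dlk1-Dio3 cluster. The 3 Sfmbt2 members were shared in no alternative but that of all deposited files, which counts identical files again. miR-154-3p was not shared with DESeq2, with median-of-ratios scaling or in any run that left out a library. miR-1983 (chr13:21896918-21897049) stood at 3190.2 and 3068 CPM without and 1109.8 and 1005 CPM with pausing in ESC, against 17465 and 8667 CPM without and 2893 and 3538 CPM with pausing in TSC. All paused libraries lay below the control libraries of their lineage, and the fall was -1.56 in ESC and -2.03 in TSC on the log2 scale. The difference of 0.47 was not called (SE 0.50, adjusted p = 0.523), and its 95% interval of -0.50 to 1.45 reached past a 2-fold difference, so equal responses are not shown. Its sign also turned with total counts (-0.12) and without control TSC replicate 1 (-0.30). miR-1983 was among the shared responses in all alternatives but thinning and leaving out control ESC replicate 1.

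miR-5099 fell by 2.23 in ESC and by 1.30 in TSC on the log2 scale, from 1686 and 2109 to 412 and 387 CPM and from 7974 and 5116 to 2935 and 2479.7 CPM. Its difference of -0.93 had a 95% interval of -2.00 to 0.14 and was not called (adjusted p = 0.189), but passed with total counts (0.0173) and without control TSC replicate 1 (0.0306). miR-467d-5p fell in both lineages and its difference lay just outside the threshold (log2 difference -1.66, SE 0.73, adjusted p = 0.0604). It was called under 8 of the alternatives, among them total counts (0.00854) and leaving out control TSC replicate 1 (0.0123), control TSC replicate 2 (0.0385) or paused TSC replicate 1 (0.0438). miR-669l-3p went from 9 pooled counts to 0 in ESC, an at least 11.56-fold fall at a floor of 3 counts, and from 54 to 6 in TSC, a 5.418-fold fall (2.334 to 15.41). With the TSC fall at its point value, the ESC response was at least 2.13-fold below the TSC response. The difference was not called (adjusted p = 0.0773). Such bounds between the lineages leave out the counting error of the point value, so the true gap could be smaller.

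The remaining shared pair had unequal falls. miR-669e-5p fell further in ESC, from 9 pooled counts to 1 (34.68-fold, counting interval 4.805 to 1520), than in TSC, from 100 to 23 (2.618-fold, 1.651 to 4.317), with an adjusted p of 0.0238 for the difference. miR-154-3p fell further in TSC, from 19 counts to 0 (at least 3.813-fold), than in ESC, from 78 to 159 counts in libraries of greater depth (1.89-fold lower, 1.423 to 2.494). With the ESC fall at its point value, the TSC fall exceeded it at least 2.02-fold (adjusted p of the difference 0.0232). Both calls rest on few counts. That of miR-669e-5p was lost when control ESC replicate 1 (0.0729), control ESC replicate 2 (0.0707), paused ESC replicate 2 (0.0881) or paused TSC replicate 2 (0.133) was left out, and that of miR-154-3p in 5 of 8 such runs, all but those without control ESC replicate 2, paused ESC replicate 2 or control TSC replicate 2, with adjusted p-values up to 0.365 without control TSC replicate 1.

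The Sfmbt2 intronic cluster had a lower pause response in ESC than in TSC. The gene spans chr2:10370510-10595253 on the plus strand, and the hairpins placed in it lie between positions 10466663 and 10517730. All hairpins of 18 of the 20 tested members lie there, as do 3 of the 4 of miR-466f-3p, and none was matched for miR-466a-5p. Of 20 tested members, 15 had a called difference, all of them lower in ESC, against 11.7% of all tested miRNAs. Differences were below 0 in 19 of 20, against 87 of the 206 tested miRNAs. The median difference was -3.36, or -3.16 with the 5 members that had a group at 0 counts set to their bound, and 10 of the 11 well-counted members were called. The cluster's share of all counts went from 2.356% and 2.8% in control ESC to 0.1903% and 0.1765% in paused ESC, while in TSC it was 4.047% and 3.947% before and 3.771% and 4.11% after pausing. Paused ESC therefore lay below every other library, and the TSC groups overlapped. The list was chosen with these data known and its count is no independent evidence.

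Within the cluster, miR-669c-5p showed the greatest called difference among the well-counted members. Its values were 1231 and 1278 CPM without and 87.3 and 15.5 CPM with pausing in ESC, against 5631 and 5538 CPM without and 5745 and 4959 CPM with pausing in TSC (log2 difference -4.38, SE 0.73, adjusted p = 3.55e-09). The ESC groups were far apart, whereas the ranges of the TSC groups overlapped. miR-669f-3p, the most abundant member in TSC, was at 3783 and 4346 CPM without and 187 and 248 CPM with pausing in ESC, against 13707 and 8728 CPM without and 5415 and 7711 CPM with pausing in TSC (log2 difference -3.43, SE 0.54, adjusted p = 8.83e-09). miR-466f-3p had control levels nearer to each other in the lineages, 3464 and 3451 CPM in ESC and 4229 and 4454 CPM in TSC, but was at 212 and 201 CPM in paused ESC and 3472 and 3931 CPM in paused TSC (log2 difference -3.82, SE 0.56, adjusted p = 9.14e-10). In all 3 the control TSC libraries already stood above control ESC, by the least for miR-466f-3p.

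The other well-counted members followed with smaller differences: miR-669a-3-3p (-3.36), miR-669l-5p (-3.24), miR-669b-3p (-3.19), miR-466g (-3.13), miR-466d-3p (-2.45), miR-467e-5p (-1.80) and miR-467c-5p (-1.76), in log2 units. The 3 well-counted miR-467 members, with miR-467d-5p above, had the differences nearest 0 of the well-counted members, a gap that was not tested. Calls for miR-466f-3p, miR-669f-3p and miR-669a-3-3p held in all 20 alternatives. Thinning to 13607 counts moved the fitted values of miR-669c-5p to -2.91, miR-669f-3p to -5.24 and miR-669a-3-3p to -6.97, and ended the call of miR-669c-5p (adjusted p = 0.0535). The number of called members was 18 with total counts, 9 with DESeq2, 4 after thinning, 7 without control ESC replicate 2 and 9 without paused TSC replicate 2. Leaving out control ESC replicate 2 also ended the calls of miR-466d-3p (0.0552) and miR-467e-5p (0.0508), and leaving out control ESC replicate 1 that of miR-669l-5p (0.0595). miR-467c-5p lost its call in 5 of 8 runs that left out a library, namely either control ESC library, paused ESC replicate 1 or either paused TSC library, with adjusted p-values up to 0.166, and with DESeq2 (0.12).

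Sparsely counted members of the cluster, apart from miR-669i, were also below 0. miR-669f-5p went from 7 pooled counts to 0 in ESC (at least 8.991-fold) and from 65 to 18 in TSC (2.174-fold, 1.274 to 3.895). With the TSC fall at its point value, the ESC response was at least 4.14-fold below that of TSC. miR-466a-5p went from 12 counts to 1 in ESC, a 46.24-fold fall with a counting interval of 6.841 to 1977, and from 94 to 27 in TSC. miR-297c-5p had 3 and 0 pooled counts in control and paused ESC, too few for a fold, beside 190 and 143 in TSC. These calls were lost without control ESC replicate 2 (adjusted p = 0.0784 for miR-669f-5p, 0.0872 for miR-466a-5p and 1 for miR-297c-5p) and without paused TSC replicate 2, that of miR-669f-5p also without paused ESC replicate 1 or control TSC replicate 1, and that of miR-297c-5p also without paused TSC replicate 1. Members of this family are near-identical repeats, the counting of reads that match several of them is not given in the sources used here, and their separate values may share reads. miR-669i, with a log2 difference of 0.17, was the 1 member not below 0. Its fitted ESC change was 0 and its TSC change -0.17, so that value came from TSC alone and measures no lineage difference.

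Further ESC-led differences lay outside the Sfmbt2 cluster. miR-3473b (chr10:41670739-41670793), a doubtful entry, had the lowest called difference of all well-counted miRNAs (log2 difference -5.01, SE 0.62, adjusted p = 2.93e-13). It stood at 3372 and 4346 CPM without and 125 and 170.2 CPM with pausing in ESC, against 446 and 2949 CPM without and 1695 and 1875 CPM with pausing in TSC. The control ESC libraries were the highest and the paused ESC libraries the lowest, but the control TSC libraries were several-fold apart and enclosed the paused ones. Its call held in all 20 alternatives, with a log2 difference of -4.14 without control TSC replicate 1 and -7.05 without control TSC replicate 2; after thinning the fitted value was -9.13.

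The miR-130 and miR-301 family had 2 of 5 tested members called, both lower in the ESC response, against 11.7% of all tested miRNAs. Its median difference was -1.30. The 3p strands share the seed AGUGCAA, while the fifth member, miR-130b-5p, has the seed CUCUUUC and a difference of 1.77 that was not called (adjusted p = 0.114). miR-301a-3p, in an intron of Ska2 (chr11:87113004-87113089), stood at 4557 and 6774 CPM without and 1546 and 1485 CPM with pausing in ESC, against 35911 and 24016 CPM without and 27404 and 27065 CPM with pausing in TSC. It fell in ESC without overlap, the TSC groups overlapped (log2 difference -1.75, SE 0.46, adjusted p = 0.00172), and the call held in all 20 alternatives, with thinning moving the value to -3.55. miR-130a-3p stood at 3737 and 3387 CPM without and 1546 and 1330.3 CPM with pausing in ESC, against 14420.3 and 30998 CPM without and 48566 and 19535 CPM with pausing in TSC (log2 difference -1.90, SE 0.47, adjusted p = 0.000676). Its TSC libraries scattered more than 2-fold within each group: the difference was -2.88 without control TSC replicate 2 and -1.19, no longer called (adjusted p = 0.0807), without paused TSC replicate 1. DESeq2 did not call it either (0.111). The count of called family members was 1 without paused TSC replicate 1, 3 without paused ESC replicate 1 or control TSC replicate 2, and 4 without control TSC replicate 1 and with total counts. miR-130b-3p, of the same seed, had a difference of -1.05 that was not called (0.145), but was called with total counts (0.0164) and without control TSC replicate 1 (0.017).

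miR-32-5p, from an intron of Tmem245 (chr4:56895229-56895298), stood at 592 and 639 CPM without and 224 and 263 CPM with pausing in ESC, against 1185 and 1384 CPM without and 2149 and 1935 CPM with pausing in TSC. It fell in ESC, and in TSC the paused libraries lay above the controls without a called change (log2 difference -2.02, SE 0.64, adjusted p = 0.0128). The call was lost without control ESC replicate 1 (0.0832) or replicate 2 (0.0828). miR-25-3p and miR-92a-3p carry the same seed, AUUGCAC, yet had differences above 0. Of the 5 tested miRNAs with this seed, 3 were above 0 and 2 below, the others being the sparsely counted miR-363-3p (above) and miR-367-3p (below). miR-25-3p, from the miR-106b-25 cluster in Mcm7, rose in ESC, from 10983 and 8947 to 24004 and 20295 CPM, and lay at 4866 and 3190.1 CPM in control and 4505 and 3719.6 CPM in paused TSC. Its difference was just outside the threshold (log2 difference 1.15, SE 0.47, adjusted p = 0.0513), with total counts it was 0.58, and the gap between miR-32-5p and miR-25-3p was not tested. The adjusted p of miR-25-3p was 0.0239 without control TSC replicate 2. miR-25-3p was the more abundant of the pair in every library.

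The 2 TSC-led miRNAs that were lower in the ESC response rose in TSC. miR-21a-5p, a growth-associated miRNA whose hairpin overlaps an exon of Vmp1, went from 6229 and 3371 to 7439.9 and 11764 CPM in TSC and from 2005 and 1917 to 1434 and 1531 CPM in ESC (log2 difference -1.37, SE 0.50, adjusted p = 0.0283). miR-335-5p, from an intron of the imprinted gene Mest, went from 2803 and 2408 to 5828 and 6199 CPM in TSC and from 1367 and 1342 to 885 and 1021 CPM in ESC (log2 difference -1.70, SE 0.54, adjusted p = 0.0113). In both, all paused TSC libraries lay above the controls. The call of miR-21a-5p was lost without control ESC replicate 1 (0.104), control ESC replicate 2 (0.0738) or paused TSC replicate 2 (0.164), and its difference was -2.09 without control TSC replicate 1. That of miR-335-5p was lost without either control ESC library, with adjusted p-values up to 0.0771.

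**Figure D3:**
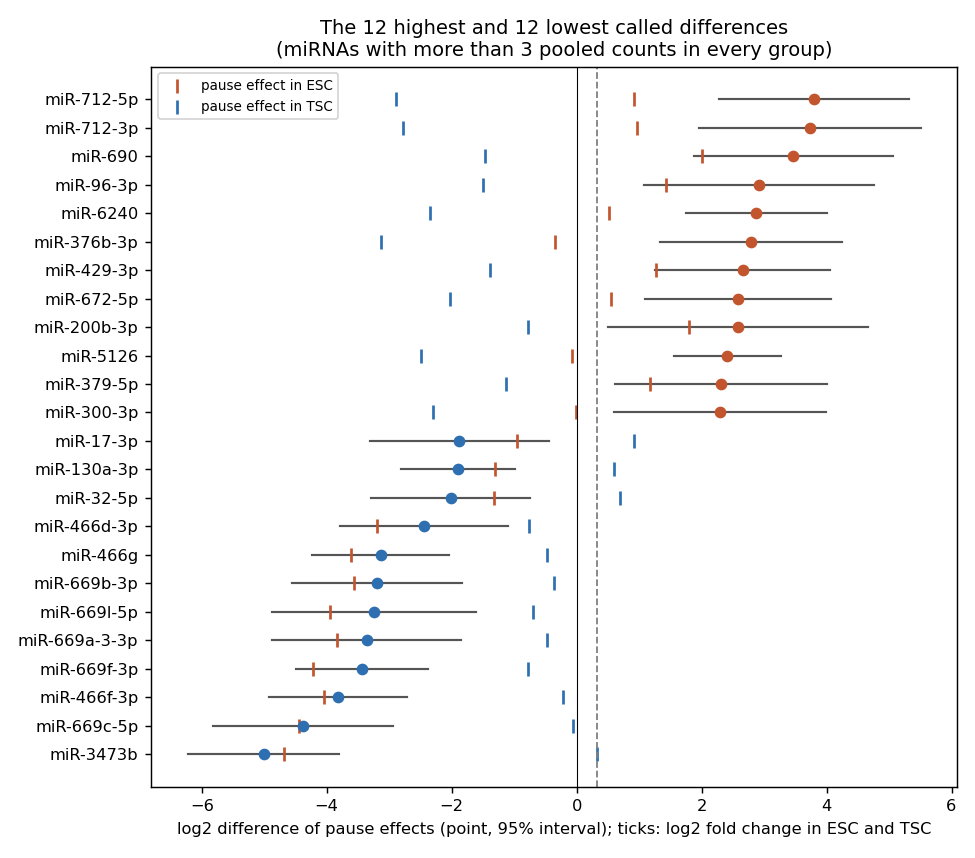
Log2 difference of pause effects (points, with 95% intervals as lines) for the 12 highest and 12 lowest called differences among miRNAs with more than 3 pooled counts in every group; ticks give the separate log2 pause effects and the dashed line is the median difference of all tested miRNAs, 0.33. For most lower differences the ESC tick lies far left and the TSC tick near 0, and for most higher differences the TSC tick lies left of 0.

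TSC-led differences with a higher response in ESC were made up largely of doubtful entries and of Dlk1-Dio3 miRNAs. Of the 9 tested doubtful entries, 6 were called higher (against 14.6% of all) and 1 lower, with a median difference of 2.41. miR-712-5p and miR-712-3p, 2 strands of a hairpin that derives from the spacer of the ribosomal RNA precursor, were at 1389 and 3129.9 and at 1490.4 and 2046 CPM in control TSC. In paused TSC they were at 331 and 242 and at 289 and 212 CPM. In ESC miR-712-5p was at 273 and 192 CPM in control and 399 and 510.5 CPM in paused libraries, and miR-712-3p at 91.1 and 192 and at 112 and 433 CPM. Both strands were lower in paused than in control TSC without overlap, and neither ESC change was called. Their log2 differences were 3.80 (SE 0.77, adjusted p = 4.01e-06) and 3.74 (SE 0.90, adjusted p = 6.42e-05), the latter 2.37 and not called without paused ESC replicate 2 (0.0755).

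miR-5126 and miR-2137 were the most abundant of these entries. miR-5126 (chr1:84695839-84695915) stood at 15814 and 12142 CPM without and 9714 and 16753 CPM with pausing in ESC, against 71095 and 64404 CPM without and 11656 and 12368 CPM with pausing in TSC. The control TSC libraries were well above all others, and paused TSC fell to the range of ESC (log2 difference 2.41, SE 0.44, adjusted p = 1.91e-06). miR-2137, in an intron of Zfp185, was at 9343 and 8819 CPM without and 6335 and 12514 CPM with pausing in ESC, against 56993 and 77706 CPM without and 14218 and 15906 CPM with pausing in TSC (log2 difference 2.21, SE 0.44, adjusted p = 1.66e-05), and miR-6240 at 957 and 703 CPM without and 935 and 1500.5 CPM with pausing in ESC, against 6178 and 6199.6 CPM without and 1447 and 998 CPM with pausing in TSC (log2 difference 2.88, SE 0.57, adjusted p = 1.22e-05). In all 3 the paused and control ESC libraries overlapped. The list took 11.17% and 15.27% of counts in TSC without pausing and 3.683% and 4.146% with it, against 3.976% and 3.675%, then 2.146% and 3.605%, in ESC. The count of 6 called higher was the same in all alternatives but thinning, with 1, and leaving out paused ESC replicate 2, with 5.

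The Dlk1-Dio3 cluster (chr12:109571990-109743795) had 10 of 33 tested members called, all higher in the ESC response, against 14.6% of all tested miRNAs. The direction rests on low TSC counts, because 26 of the 33 were sparsely counted. The median difference was 2.24, 0.986 with the 6 members that had a group at 0 set to their bound, and 1.79 over the 7 well-counted members, of which 3 were called. The cluster took 4.931% and 5.505% of counts in ESC before and 5.991% and 5.279% after pausing. In TSC it took 0.4425% and 0.4593% before and 0.2325% and 0.2001% after pausing. The ESC groups overlapped, and the paused TSC libraries lay below the controls.

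miR-376b-3p was the best counted called member and stood at 5013 and 7669 CPM without and 5237 and 4703 CPM with pausing in ESC, against 1452 and 482 CPM without and 124 and 121 CPM with pausing in TSC. Paused TSC lay below control TSC and the ESC groups overlapped (log2 difference 2.79, SE 0.74, adjusted p = 0.000526). miR-300-3p (2.29, adjusted p = 0.021) and miR-379-5p (2.31, 0.0232) completed the well-counted called members. miR-379-5p rose in ESC, from 1048 and 959 to 1945 and 2629.7 CPM, but its ratios of paused to control overlapped between the lineages. miR-337-3p went from 38 to 271 pooled counts in ESC (1.851-fold, 1.315 to 2.672) and from 17 to 1 in TSC (10.23-fold lower, 1.604 to 427.7). miR-411-3p went from 84 to 562 in ESC (1.736-fold, 1.379 to 2.211) and from 20 to 2 in TSC (6.02-fold lower, 1.462 to 53.12).

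Control TSC replicate 1, the deepest library, carried most TSC counts of this cluster. Without it 0 members were called and miR-376b-3p was at 1.45 (adjusted p = 0.212); without control TSC replicate 2 there were 12. The number was 4 with total counts, 2 with DESeq2, 0 after thinning, 4 without control ESC replicate 1, 2 without paused ESC replicate 1, 2 without paused TSC replicate 1 and 3 without paused TSC replicate 2. The call of miR-376b-3p was also lost without paused TSC replicate 2 (0.059). miR-300-3p lost its call in all runs that left out a library but those without paused ESC replicate 2 or control TSC replicate 2, and miR-379-5p in all but that without control TSC replicate 2, with adjusted p-values of 0.283 and 1 without control TSC replicate 1. miR-337-3p lost it without control TSC replicate 1 (0.0516) or paused TSC replicate 1 (0.0572), and miR-411-3p without either of these (0.293 and 0.0874) or paused ESC replicate 1 (0.0561).

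Other miRNAs that were higher in the ESC response came from smaller groups. miR-203-3p, an epithelial miRNA (chr12:112130880-112130955), fell in TSC from 3070.1 and 2408 to 537 and 514 CPM and had 3 and 22 pooled counts in control and paused ESC (adjusted p of the difference 0.00289). Its call was lost without control ESC replicate 1 (0.0832). miR-672-5p, from an intron of Nexmif, was at 592 and 447 CPM without and 648 and 913 CPM with pausing in ESC, against 548 and 903 CPM without and 207 and 121 CPM with pausing in TSC (log2 difference 2.58, SE 0.76, adjusted p = 0.00289), and lost its call without paused TSC replicate 2 (0.0955) and with DESeq2 (0.0616). miR-26b-5p, from an intron of Ctdsp1, went from 1 to 65 pooled counts in ESC, a 16.87-fold rise with a counting interval of 2.923 to 676.4, and from 30 to 13 in TSC. Its adjusted p was 0.00374, and 0.0508 without control ESC replicate 2 and 0.0699 without control TSC replicate 1.

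In the miR-200 family 2 of 5 tested members were called, both higher, against 14.6% of all tested miRNAs, with a median difference of 1.96. miR-200b-3p was at 137 and 256 CPM without and 611 and 712 CPM with pausing in ESC, against 166 and 241 CPM without and 124 and 90.7 CPM with pausing in TSC. It rose in ESC, and its paused TSC libraries lay below the controls without a called change (log2 difference 2.58, SE 1.06, adjusted p = 0.0379), but the call was lost in each of the 8 runs that left out a library, with adjusted p-values from 0.0596 to 0.179. miR-200a-3p missed the threshold (log2 difference 1.96, SE 0.92, adjusted p = 0.0604), and miR-141-3p was the 1 member below 0, at -0.70. The count of called members was 0 with DESeq2, without paused ESC replicate 1 and without paused TSC replicate 2, and 1 with total counts and without any other library. Without control TSC replicate 1 that member was miR-200a-3p, called higher (adjusted p = 0.0436).

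The miR-183 cluster had 1 of 4 members called higher, against 14.6% of all tested miRNAs. All 4 differences were above 0, as were 119 of the 206 tested miRNAs. The called member, miR-96-3p, was at 182 and 128 CPM without and 486 and 371 CPM with pausing in ESC, against 599 and 421 CPM without and 207 and 181 CPM with pausing in TSC (log2 difference 2.92, SE 0.94, adjusted p = 0.00553). That call was lost without control TSC replicate 1 (0.103) or paused TSC replicate 2 (0.0766). All 4 tested members of the miR-106a-363 cluster, a paralogue of miR-17-92 on the X chromosome, were nearly absent from TSC, where the cluster took at most 0.01559% of counts. miR-20b-5p was called (adjusted p = 0.0159), with 511 and 2414 pooled counts in ESC and 10 and 0 in TSC. With the ESC change at its point value, its response was at least 2.46-fold higher in ESC. All 10 of those TSC counts came from control TSC replicate 1, and without that library the adjusted p was 1. The call of miR-20b-5p was also lost without paused TSC replicate 1 (0.0807) or replicate 2 (0.147). miR-150-5p, a blood cell marker, was likewise counted mainly in ESC, with 76 and 659 pooled counts there and 5 and 0 in TSC. With the ESC rise at its point value of 2.25-fold (counting interval 1.773 to 2.893), its response was at least 2.26-fold higher in ESC. Its call (adjusted p = 0.0283) held in 6 of 19 alternatives, was kept without control ESC replicate 1, paused ESC replicate 2 or control TSC replicate 2 alone among the runs that left out a library, and had an adjusted p of 1 without control TSC replicate 1. The blood markers miR-142a-5p and miR-142a-3p fell in ESC and had 7 or fewer pooled counts in each TSC group. Blood markers together took 0.8928% and 1.11% of counts in ESC before pausing, 0.5736% and 0.4858% after it and at most 0.01299% in any TSC library, and the part of other cells in these values was not tested.

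**Figure D4:**
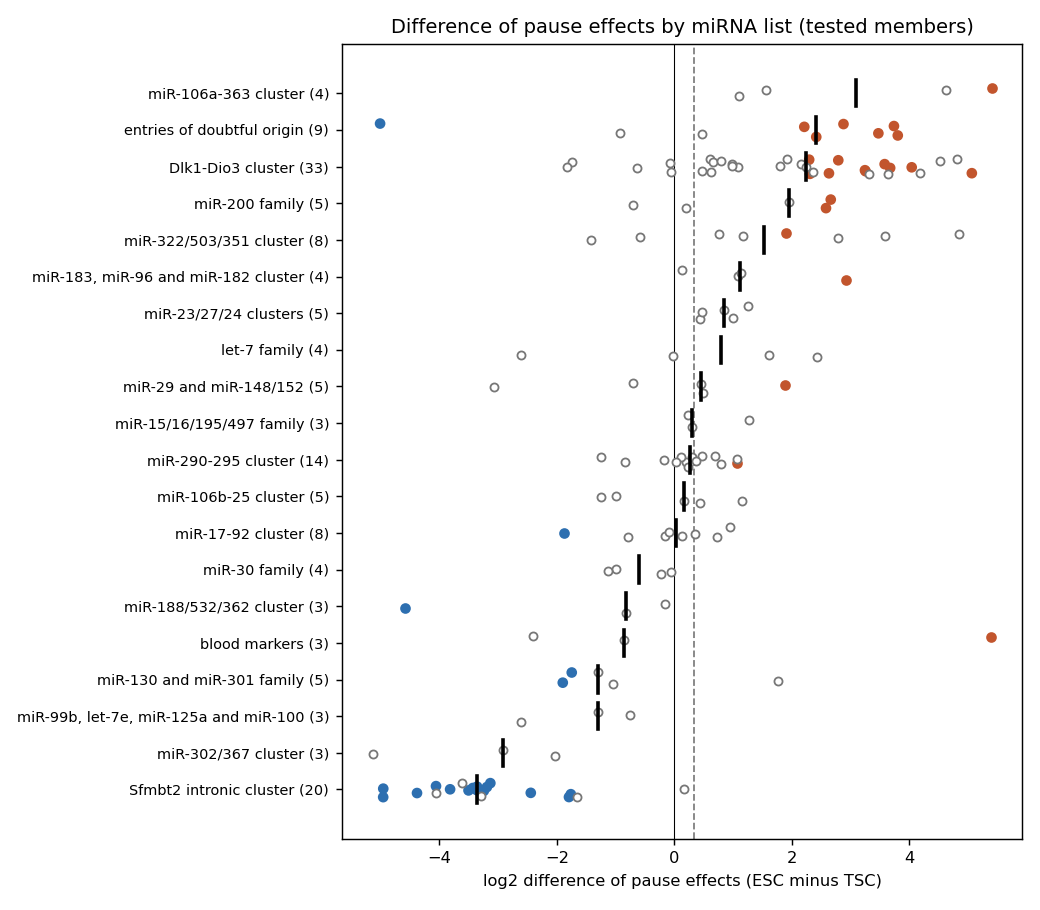
Log2 difference of pause effects for each tested member of the miRNA lists, with the number tested in brackets; filled points are called (orange higher, blue lower), open points are not, bars are list medians and the dashed line is the median of all tested miRNAs. The Sfmbt2 cluster lies to the left of 0 apart from 1 member, the Dlk1-Dio3 cluster lies mainly to the right, and the miR-290-295 and miR-17-92 clusters lie around 0.

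The clusters that dominate pluripotent cells gave few called differences, beside 26.2% called among all tested miRNAs, and the gap from that share was not tested. In the miR-290-295 cluster 1 of 14 members was called, miR-294-3p, at 53596 and 59115 CPM without and 84084 and 92319 CPM with pausing in ESC, against 93044 and 61696 CPM without and 60387 and 56096 CPM with pausing in TSC (log2 difference 1.06, SE 0.42, adjusted p = 0.0472). Paused ESC lay above and paused TSC below their controls, neither pause effect being called alone. This was the smallest called difference, it fell to 0.49 with total counts and 0.56 without control TSC replicate 1, and among the runs that left out a library it was kept only without control ESC replicate 2 or control TSC replicate 2. The cluster's median difference was 0.263, and with total counts 0 members were called higher and 2 lower, so it had no direction that held under every scaling. miR-291a-3p, of the same seed as miR-294-3p, had a difference of 0.46 with a 95% interval of -0.36 to 1.28. miR-290a-5p, the most abundant member, had a difference of 0.20 with an interval of -0.62 to 1.01, which made it one of the most precisely measured miRNAs.

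In the miR-17-92 cluster, which drives proliferation, 1 of 8 members was called, against 26.2% of all tested miRNAs. It was miR-17-3p (log2 difference -1.88, SE 0.73, adjusted p = 0.0431). Among the runs that left out a library it was kept only without paused ESC replicate 2 or control TSC replicate 2, and the highest adjusted p was 0.182, without control ESC replicate 1. The abundant miR-17-5p had 19506 and 23326 CPM without and 12408 and 14309 CPM with pausing in ESC, against 16344 and 10172 CPM without and 13557 and 15483 CPM with pausing in TSC and a difference of -0.80 that was not called (adjusted p = 0.168), but was called with total counts (0.000842) and without control TSC replicate 1 (0.00153). miR-34a-5p, a p53 target, fell in ESC, from 4102 and 4474 to 1023 and 1268 CPM, and stood at 19452 and 17395 CPM in control and 10457 and 10977 CPM in paused TSC. Its difference missed the threshold (log2 difference -1.12, SE 0.48, adjusted p = 0.0608) but was called in 12 of 20 alternatives, including DESeq2 (0.018), and without control TSC replicate 1 the adjusted p was 0.00908.

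In the TSC-rich miR-322 cluster, miR-322-5p fell in TSC, from 118662 and 98292 to 41002 and 51106 CPM, and was at 456 and 895 and 574 and 665 CPM in control and paused ESC (log2 difference 1.16, SE 0.54, adjusted p = 0.0822). Paused TSC lay below control TSC, while the ESC groups overlapped. The called member was miR-542-3p (log2 difference 1.90, SE 0.79, adjusted p = 0.0399), whose call held in 2 of 20 alternatives and was lost in each of the 8 runs that left out a library. In the miR-29 and miR-148 list, miR-29a-3p was called (log2 difference 1.87, SE 0.72, adjusted p = 0.0283) and kept its call only in those without control ESC replicate 2 or control TSC replicate 2, with an adjusted p of 0.398 without control ESC replicate 1. No member was called in the let-7 (4 tested), miR-15 and miR-16 (3), miR-23, miR-27 and miR-24 (5), miR-30 (4), miR-34 (2), miR-99b and miR-125a (3) or miR-106b-25 (5) lists. Over all tested miRNAs 26.2% were called, and the gap of these lists from that share was not tested. The miR-302 cluster had 3 tested members, which fell in ESC, as in miR-302b-3p from 28 pooled counts to 3 and in miR-367-3p from 40 to 4, but TSC held 2 or fewer counts of each, so no lineage difference could be measured.

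Sequence and position were set beside the differences. The 164 miRNAs with a RefSeq sequence carried 127 distinct seeds, of which 20 were shared by at least 2 tested miRNAs. The sequences cover 34 of the 54 called miRNAs. The 20 without one, among them all 15 called Sfmbt2 members, both strands of miR-712 and miR-1949, are left out of the seed counts. Among those with a sequence, 3 seeds had 2 called members, and in each both went the same way: AGUGCAA (miR-130a-3p and miR-301a-3p, lower), AAUACUG (miR-429-3p and miR-200b-3p, higher) and AUGUAAC (miR-379-3p and miR-411-3p, higher). In each pair the members come from related or neighbouring hairpins. miR-200c-3p, of the seed AAUACUG but from another chromosome than miR-429-3p, had a difference of 0.20 that was not called. Paired by name, with or without a RefSeq entry, both arms were tested for 40 hairpins, and the 2 differences had the same sign in 26. Both arms were called in 5, miR-379, miR-411, miR-467e, miR-669f and miR-712, and 1 arm in 8. The arms of miR-32 stood at -2.02 (5p, called) and 0.75 (3p, not called), and those of miR-96 at 2.92 (3p, called) and 0.12 (5p, not called). The gaps between arms were not tested. miR-335-5p, miR-379-3p, miR-669f-5p, miR-297c-5p, miR-467c-5p, miR-669i, miR-200c-3p, miR-130b-5p and miR-32-3p were chosen for naming after their values were seen.

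Precision limited how far equal responses can be stated. Among 134 well-counted miRNAs, 36 were called (18 in each direction), as were 18 of the 72 sparsely counted ones. Of the 98 well-counted miRNAs that were not called, 97 had a 95% interval that reached past a 2-fold difference, the median half-width being 1.351 on the log2 scale. An uncalled difference here therefore does not show a like response. Of the 142 miRNAs counted in every library, 73 (51.4%) had paused-to-control ratios that did not overlap between the lineages, 39 higher in ESC (27.5%) and 34 lower (23.9%). Of the 38 called miRNAs among them 36 did not overlap, and 37 that did not overlap were uncalled. The smallest called difference was 1.058 in size.

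**Figure D5:**
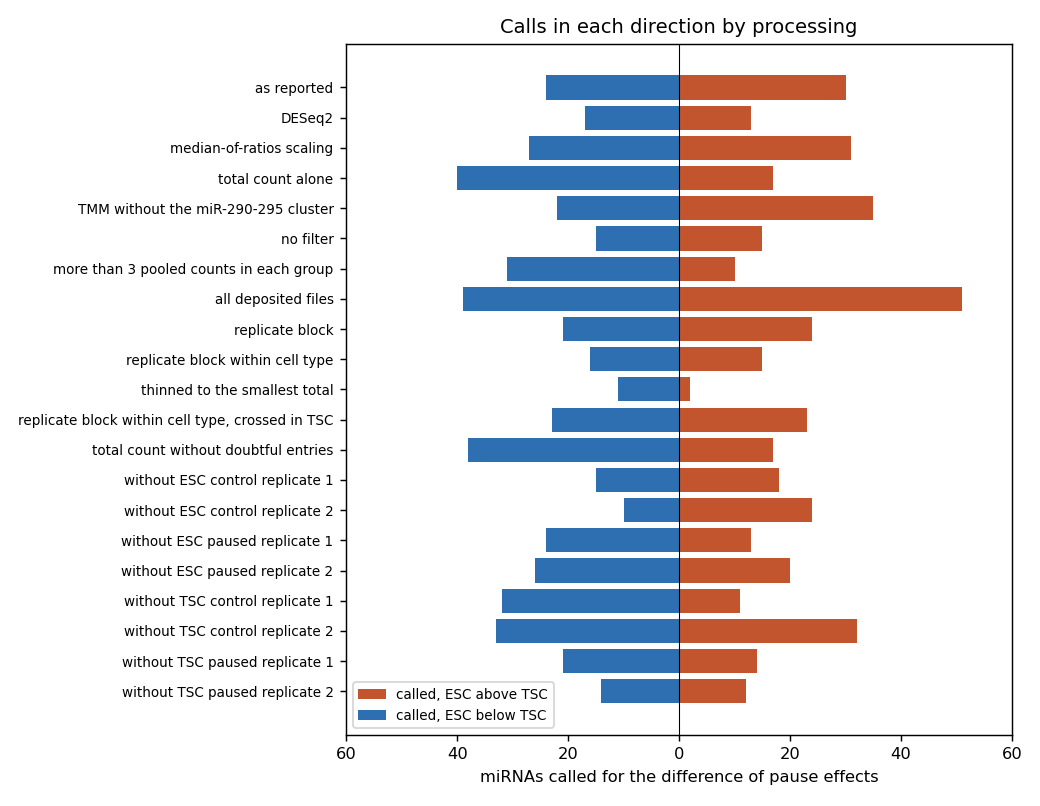
Number of miRNAs called for the lineage difference, higher in ESC to the right and lower in ESC to the left, as reported and under each of the 20 alternative settings. The split moves from 30 higher and 24 lower as reported to 17 and 40 with total counts, and the fewest calls, 2 and 11, come from thinning every library to 13607 counts.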

How the data were processed

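The authors extracted small RNA with the miRNeasy kit and made libraries with the SMARTer smRNA-seq kit, per the labels' protocols, which adds a poly(A) tail to RNA 3′ ends. The deposited files, 1 per sample, held counts of reads per mature miRNA, not normalized. The submitters' processing notes name GRCm38. How reads were aligned, to which annotation release, and how several matches were treated is not given in the sources used here. Total counts per distinct library ranged from 13607 to 115492, and intervals from counts cover counting error only.

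Replicate 3 was dropped in each group because it repeated replicate 2. Of 1978 rows, 1330 were 0 everywhere. Counts were filtered with filterByExpr (minimum count 10, at least 2 libraries), which left 206 miRNAs with at least 98.1366% of counts, scaled by TMM, and fitted with edgeR 4.0.16 (R 4.3.3, limma 3.58.1) with 1 mean per group. The 4 groups shared 1 spread (biological coefficient of variation 21.34%). The difference of the pause effects was tested with glmQLFTest, two-sided, and adjusted over all 206 miRNAs by Benjamini-Hochberg at 0.05. Standard errors and 95% intervals are from the fitted model and use the spread pooled over miRNAs. The fit was tested on simulated data. Alternatives were DESeq2 1.42.0, other scalings and filters, replicate blocks, thinning and leaving out each library.

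Named miRNAs were all those called in both lineages, the 12 highest and 12 lowest called differences with more than 3 pooled counts in each group, the 6 sparsely counted ones with the lowest adjusted p, up to 4 abundant members of each of 27 lists, the 3 called and 3 uncalled nearest the threshold, and the 5 with the narrowest intervals. The comparison, the lists and the tests were chosen with earlier results of these data known. Lists were described by counts and medians and not tested. Sequences and hairpin positions came from RefSeq on GRCm38.p6, and the Sfmbt2 hairpins from GENCODE on the same assembly.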

Additional observations from a re-analysis of the deposited data

Results flagged for a closer look

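Each result here is a miRNA chosen by the naming rule whose pause effect differed between ESC and TSC by the test of the difference itself (edgeR, adjusted p under 0.05), and its value is the log2 pause effect in ESC minus that in TSC. Values of miRNAs with 3 or fewer pooled counts in a group are fitted, and where a group held 0 counts they depend on edgeR's prior count and are no bound; miR-188-5p had 3 and 0 pooled counts in control and paused ESC, too few for a fold, and its call was lost in 7 of 8 runs that left out a library, all but that without control TSC replicate 2, with adjusted p-values up to 0.171. In the Sfmbt2 cluster the values were miR-669c-5p -4.38, miR-466a-5p -4.06, miR-466f-3p -3.82, miR-669f-3p -3.43, miR-669e-5p -3.36, miR-669a-3-3p -3.36, miR-669l-5p -3.24, miR-669b-3p -3.19, miR-466g -3.13, miR-466d-3p -2.45 and miR-467e-5p -1.80. Outside it, the responses lower in ESC were miR-3473b -5.01, miR-188-5p -4.58, miR-32-5p -2.02, miR-130a-3p -1.90, miR-17-3p -1.88, miR-301a-3p -1.75 and miR-21a-5p -1.37.

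The responses higher in ESC were, in the Dlk1-Dio3 cluster, miR-154-3p 5.06, miR-337-3p 4.04, miR-411-3p 3.24, miR-376b-3p 2.79, miR-495-3p 2.63, miR-379-5p 2.31 and miR-300-3p 2.29. Among the doubtful entries they were miR-712-5p 3.80, miR-712-3p 3.74, miR-690 3.47, miR-6240 2.88, miR-5126 2.41 and miR-2137 2.21. Elsewhere they were miR-1949 6.30, miR-20b-5p 5.40, miR-150-5p 5.38, miR-26b-5p 4.40, miR-203-3p 3.30, miR-96-3p 2.92, miR-429-3p 2.66, miR-200b-3p 2.58, miR-672-5p 2.58, miR-542-3p 1.90, miR-29a-3p 1.87 and miR-294-3p 1.06. No test of what sets any of these differences was made, and depth differed between the groups as given above.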

How the results depend on the processing

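The counts as reported were 54 called differences (30 higher, 24 lower in ESC), 6 shared, 3 opposite, 27 ESC-led and 18 TSC-led responses. Values below are counts that moved by over 1.5 times, and the cause was not tested. DESeq2 called 30 (13 higher), with 2 shared, 1 opposite, 15 ESC-led and 9 TSC-led, leaving 60 miRNAs without an adjusted p. Total counts gave 17 higher, 40 lower and 2 shared, and total counts without the doubtful entries, an alternative chosen after seeing the data, gave 17 higher, 38 lower, 3 shared, 1 opposite and 10 TSC-led. Median-of-ratios scaling gave 2 shared, and TMM without the miR-290-295 cluster 1. No filter (648 tested) called 30, 15 in each direction, with 1 shared, 1 opposite, 16 ESC-led and 7 TSC-led. A filter of more than 3 pooled counts in each group (149 tested) gave 10 higher, 3 shared, 0 opposite and 9 TSC-led. Thinning called 13 (2 higher, 11 lower), with 0 shared, 0 opposite, 12 ESC-led and 1 TSC-led. Treating all deposited files as libraries, which counts identical files again, called 90 (51 higher, 39 lower), with 16 shared, 11 opposite and 42 ESC-led. Leaving out 1 library gave 26 to 65 called, 11 to 32 higher, 10 to 33 lower, 0 to 3 shared, 0 to 5 opposite, 15 to 37 ESC-led and 5 to 17 TSC-led.

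The labels do not say whether same-numbered libraries belong together. Their deviations from the group means correlated at -0.0803 across miRNAs between control and paused ESC and at -0.218 between control and paused TSC. With 2 libraries per group these values cannot show whether libraries were paired. With a replicate block across all groups 45 were called and 2 were shared. With a replicate block within cell type 31 were called (15 higher), with 1 shared, 17 ESC-led and 8 TSC-led. With that block and the numbers crossed in TSC, a pairing chosen after seeing the data, 46 were called and 3 shared.

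Among called differences 51 of 54 kept their sign in all of the 20 alternatives that tested them, and 14 stayed called in all 8 runs that left out a library. After thinning miR-379-5p was at -0.8062 (adjusted p = 0.8416), and miR-106b-5p, uncalled as reported, was at -6.429 (adjusted p = 0.04273). With 2 libraries per group and 4 residual degrees of freedom, the test leaned on a spread shared over all miRNAs, with 824 total degrees of freedom. Its p-values and intervals therefore hardly follow the scatter of a miRNA's own libraries. On simulated counts with 194 miRNAs tested, 15 of 18 log2 changes of 3 and 5 of 20 of 1.5 were called, beside 2 of 156 unchanged miRNAs. The simulation gave every miRNA the same spread, so it cannot show how the test fares where libraries of a group scatter more. Where a TSC group held no counts, the TSC change was kept and ESC left flat, so miRNAs set down as unchanged could carry a difference.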
